A study of Mus musculus with 16 samples.

Results

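The transcripts described here are the long intergenic RNAs (lincRNAs) of mouse vascular and blood cells whose array probes differed most between Tie-2-Etv2 and control cells of the yolk sac. The array carried 16251 lincRNA probes among 55681 probes, and 6263 of them stood clearly above background (the scanner's well-above-background flag) on both arrays of some yolk sac group. A probe became a member when its mean level differed by at least 2 on the log2 scale, which is a 4-fold change of signal, between Tie-2-Etv2 and control cells in either CD45 gate of the yolk sac. That gave 826 members, 13.2% of the 6263, from 487 annotated regions that joined into 391 loci where regions overlapped. Of these loci 221 held 1 member, and 40 loci held 5 or more members with 272 members between them. The members were thus chosen by the yolk sac genotype differences themselves, which are given as a description without a test. The embryo arrays took no part in the choice, and differences there were tested.

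Cells were sorted by flow cytometry from mice of mixed strain background (B6/CBA and others) at E11.5, and RNA of each sample was hybridised to an Agilent 1-colour array. All samples were positive for VE-cadherin, the junction protein of endothelial cells. The 8 groups combined tissue (embryo proper or yolk sac), CD45, the surface protein of leukocytes (CD45- or CD45+), and genotype (Control or Tie-2-Etv2), with 2 arrays in each. For the transgenic CD45- cells of the embryo the titles give only Tie-2, while the genotype label reads Tie-2-Etv2. The labels state neither how the transgene was built nor whether the 2 arrays of a group stand for different embryos or litters. The p-values therefore reflect the spread among these arrays alone, which may be technical. Embryo and yolk sac arrays lay on separate slides, so tissue and slide cannot be told apart, while every genotype comparison lay within 1 slide.

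Long intergenic RNAs are transcribed from stretches between protein-coding genes, are often spliced and polyadenylated, and do not encode known proteins. Many are found in few cell types, and some act in the nucleus near their own locus while others serve as scaffolds for proteins. Etv2 is an ETS-family transcription factor that starts the blood and endothelial programmes in early mesoderm, and Tie-2 is the endothelial receptor tyrosine kinase encoded by Tek.

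The 60-base probes shown here are those on which the main results turn, given 5′ to 3′ as printed in the array files, since the probe is the only stretch of each transcript that was measured. Positions are on mm9, as in the files. The first 5 probes had higher signal in Tie-2-Etv2 cells of both yolk sac gates. They lie at chr13:24615882-24615941 on the plus strand, chr4:88583426-88583485 and chr4:88583505-88583564 on the minus strand, and chrX:98992722-98992781 and chrX:98993445-98993504 on the plus strand. A_30_P01022549, at chr1:175706528-175706587 on the minus strand, was higher in CD45- cells. The last 4 had lower signal in Tie-2-Etv2 cells of either yolk sac gate or of both. They lie at chr1:175655065-175655124 (minus strand), chr9:78116894-78116953 (plus strand), chr3:30049070-30049129 (minus strand) and, within H19, chr7:149762173-149762232 (minus strand).
A_30_P01022557: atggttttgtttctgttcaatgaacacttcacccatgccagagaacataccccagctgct
A_30_P01019307: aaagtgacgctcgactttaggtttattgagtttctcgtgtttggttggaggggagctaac
A_30_P01027753: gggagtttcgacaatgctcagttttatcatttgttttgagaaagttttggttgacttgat
A_30_P01030312: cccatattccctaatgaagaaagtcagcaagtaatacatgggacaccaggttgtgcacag
A_30_P01020886: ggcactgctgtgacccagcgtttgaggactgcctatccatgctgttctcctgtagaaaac
A_30_P01022549: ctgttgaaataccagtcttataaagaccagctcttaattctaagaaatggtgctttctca
A_30_P01021447: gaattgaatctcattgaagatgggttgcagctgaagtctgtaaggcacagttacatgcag
A_30_P01028766: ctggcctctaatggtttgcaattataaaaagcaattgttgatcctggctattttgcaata
A_30_P01028353: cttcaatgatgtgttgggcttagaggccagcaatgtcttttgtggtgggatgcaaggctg
A_30_P01026972: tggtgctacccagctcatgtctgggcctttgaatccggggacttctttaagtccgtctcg

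The share of probes flagged as well above background was 50.6% to 59.9% per array, with 0 saturated spots. The number of arrays limits the precision, and each member was measured by 1 spot. Etv2 itself, read by A_51_P137560, had levels of -2.60 and -2.96 in control and 3.89 and 3.26 in Tie-2-Etv2 yolk sac CD45- cells, and of -6.20 and -2.09 against 2.11 and 1.76 in yolk sac CD45+ cells. The embryo levels were -0.14 and -0.14 against 2.58 and 2.13 in CD45- cells and -2.39 and -2.75 against 0.10 and 0.93 in CD45+ cells, so both transgenic arrays lay above both controls in all 4 populations. A level here is the log2 signal of a probe minus the 75th percentile of its array, so that 0 is a bright probe and values near -7 are at background.

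Marker genes of several cell types moved with genotype as well. Over 10 endothelial marker genes the mean level per array was 5.72 to 5.83 in control and 4.23 to 4.41 in Tie-2-Etv2 yolk sac CD45- cells, and all 10 were above background on every array of both groups. In the same cells the mean of 10 leukocyte markers went from -2.36 to -2.05 in controls up to 3.18 to 3.47, and that of 10 megakaryocyte markers from -1.76 to -1.56 up to 5.12 to 5.64. Ptprc (CD45 itself), Cd53 and Cd52 were not above background in the control cells, while 9 of the 10 leukocyte markers were above it on both Tie-2-Etv2 arrays. Ptprc had a mean level of -5.00 in control and -3.18 in Tie-2-Etv2 yolk sac CD45- cells, against 3.34 in control CD45+ cells. The mean of 10 macrophage markers in yolk sac CD45+ cells went from 6.38 to 6.82 in controls down to 2.53 to 2.86, and the endothelial mean from -0.13 to 0.17 up to 2.43 to 2.58. The part of these shifts in the lincRNA results was not tested, and fewer cells of a type and less RNA per cell cannot be told apart in such samples.

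Among yolk sac CD45- cells 309 members had higher and 217 lower signal with the transgene, which is 4.93% and 3.46% of the lincRNA probes well above background, against 4.99% and 7.93% of all probes so measured. For CD45+ cells the counts were 210 higher and 208 lower, or 3.35% and 3.32% of the lincRNA probes against 4.40% and 5.83% of all probes. Because the rule used these contrasts, nothing is read from the shares. Past the threshold in both gates were 78 members that were higher in both, 28 that were lower in both and 12 that went opposite ways, while 226 were higher and 182 lower in CD45- cells alone, and 125 higher and 175 lower in CD45+ cells alone. The 2 gates were sorted from the same tissue, and the labels do not say whether from the same animals.

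Many of these differences ran between a signal and the background. Of the 526 members past the threshold in CD45- cells, 512 were well above background on both arrays of the brighter group, 288 were so on neither array of the dimmer group, and 164 were measured on both sides. Of the 418 in CD45+ cells the numbers were 384, 191 and 131. Where the dimmer group was not well above background on either array, a fold is given as a lower bound: the brighter group's mean is set against a floor for each array of the dimmer group, namely the lowest signal flagged as above background there or the probe's own signal, whichever was higher. The choice of background correction mattered most here. A correction by normexp with an offset of 50, which shrinks differences of dim probes by its construction, left 117 members, all of them among the 826. The differences of named members keep their sign under it where they were past 2, but 56 of 71 became smaller or larger by over 1.5 times.

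The members with more signal in Tie-2-Etv2 cells of both yolk sac gates included a pair in a short region of chromosome 13, chr13:24615451-24615973, which differed in the same direction. A_30_P01022557 read -6.57 and -6.98 on the control arrays and -0.51 and 0.03 on the Tie-2-Etv2 arrays of CD45- cells, and -6.13 and -6.41 against -0.72 and -0.57 in CD45+ cells. No control array was well above background, and the groups did not overlap. The differences were 6.53 (at least 24.8-fold) and 5.62 (at least 13.2-fold), with a fitted SE of 0.29. Its neighbour A_30_P01017728 differed by 5.76 and 4.96, with an SE of 0.68. The nearest gene probe on the same strand, that of Cmah, an enzyme that makes the sialic acid Neu5Gc, lay 53467 bases from A_30_P01022557. It differed by 2.99 in CD45- and by -2.0 in CD45+ cells.

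The region chr4:88583425-88584070 on the minus strand behaved alike in the yolk sac. A_30_P01019307 had levels of -6.15 and -6.87 in control and -0.46 and 0.13 in Tie-2-Etv2 CD45- cells, a difference of 6.35 (at least 26.2-fold). In CD45+ cells A_30_P01019307 read -6.55 and -4.12 against -0.03 and 0.19, a difference of 5.41 ± 0.96 (SE). The second probe, A_30_P01027753, differed by 5.56 in CD45+ cells (at least 12.1-fold) and by 4.32 in CD45- cells. One control array there read -3.57 and the other -7.12, and without yolk sac CD45- Control replicate 2 the difference was 2.55. The closest gene probe was that of Ifne, which encodes an epithelial interferon, 57741 bases from A_30_P01019307, and it differed by -0.01 and -0.32.

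The region chrX:98989930-98994344 was already measured in control cells. Levels of A_30_P01030312 were -2.10 and -2.05 in control and 2.35 and 1.77 in Tie-2-Etv2 CD45- cells of the yolk sac, and -4.57 and -3.72 against 0.64 and 0.62 in CD45+ cells. The differences were 4.14 and 4.77 with an SE of 0.54, and no transgenic array overlapped a control. A_30_P01020886 in the same region read 0.17 and 0.50 against 3.88 and 3.21, a difference of 3.21, and -2.38 and -1.83 against 2.09 and 2.03, a difference of 4.17. Cxcr3, a chemokine receptor of lymphocytes, had the nearest gene probe, 65743 bases away on the opposite strand, and differed by 4.76 in CD45- and by -1.84 in CD45+ cells.

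The 78 members that were higher in both gates came from 39 loci, and 2 further ones are described here. The region chr1:69531191-69570566 beside Ikzf2, a zinc finger factor of the Ikaros family, held 6 members of 18 lincRNA probes, with median differences of 4.15 in CD45- and 3.55 in CD45+ cells. Its A_30_P01017761 read -7.02 and -6.20 against -2.38 and -1.12 in CD45- cells, a difference of 4.86. Ikzf2 itself, 9024 bases off on the same strand, differed by 3.52 and 3.30. At chr1:88187397-88187862 A_30_P01029577 read -7.01 and -7.37 against -3.03 and -2.86 in CD45- cells (at least 3.81-fold) and -6.58 and -6.83 against -2.39 and -2.62 in CD45+ cells (at least 3.64-fold).

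Several loci were higher in CD45- cells only. At chr1:175705225-175717250, between Ifi204 and Mndal of the interferon-inducible p200 family, A_30_P01022549 read -6.65 and -7.04 in control and 0.27 and -0.45 in Tie-2-Etv2 CD45- cells. The difference was 6.76 (at least 27.6-fold). The CD45+ levels of 1.10 and 1.31 in control cells and 1.98 and 2.33 in Tie-2-Etv2 cells differed by 0.95. A_30_P01023338 and A_30_P01027543 of the region differed by 6.23 (at least 28.0-fold) and 6.18 (at least 51.5-fold) in CD45- cells and by -0.31 and 0.62 in CD45+ cells. A_30_P01023338 shares a run of at least 25 bases with A_30_P01021597 of the Ifi207 locus described below. A_30_P01022549 shares a shorter run with A_30_P01019537 of that locus. The signal of each of these probes may include transcripts of the other locus, which was not tested. The nearer gene probe on the same strand, that of Ifi204, lay 28822 bases from A_30_P01022549 and differed by -0.74 in CD45- and -3.73 in CD45+ cells. Another Ifi204 probe, A_55_P2066578, differed by -4.37 and -5.01. Mndal, a nuclear protein of the same family on the other side, had its probe 80963 bases from A_30_P01022549 and differed by 7.04 and -0.16. These transcripts were abundant in CD45+ cells of both genotypes, and leukocyte marker levels were higher in the same CD45- samples, as given above. At chr8:26343277-26352902 13 of 16 lincRNA probes were members, all higher in CD45- cells, with a median difference of 2.82 there and 0.46 in CD45+ cells.

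Members that were lower in yolk sac CD45- cells were led by 3 probes in the region of chr9:78104935-78118850 on the plus strand. A_30_P01028766 read 2.92 and 3.38 on the control arrays and -3.34 and -3.64 on the Tie-2-Etv2 arrays, a difference of -6.64 ± 0.75 (SE). A_30_P01018914 and A_30_P01020518 differed by -6.86 and -6.28, and the 3 probes were above background on all 4 arrays of these cells. Gsta1, a glutathione S-transferase, lay 26424 bases from A_30_P01028766 on the same strand and differed by -7.05. A_30_P01028766 shares a run of at least 25 bases with the probes of Gsta1 and Gm10639, so its signal may include their transcripts. Beside this, the mean level of 10 yolk sac endoderm markers was 3.76 to 3.94 in control and 0.29 to 3.27 in Tie-2-Etv2 CD45- cells, and its part was not tested.

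Another large difference, at chr8:67552315-67561235, came from A_30_P01031408. It had levels of 0.04 and -0.02 in control and -6.57 and -6.50 in Tie-2-Etv2 CD45- cells, which is at least 29.4-fold lower. In CD45+ cells its 2 control arrays read -4.15 and -6.59 and the transgenic arrays -3.25 and -6.17, which overlapped.

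Lower in CD45- cells, too, were members near Mecom, a zinc finger factor of blood stem cells. The locus chr3:30032959-30080281 held 10 members of 19 lincRNA probes, with a median difference of -2.91 (range -4.10 to -2.09), against -0.32 in CD45+ cells. A_30_P01028353 went from -2.56 and -2.95 to -6.86 and -6.84, at least 4.33-fold lower. A second locus, chr3:30099759-30133959, held 6 members with a median of -3.01. Mecom, whose probe lay 86362 bases from A_30_P01028353, differed by -2.45 in CD45- and by 0.34 in CD45+ cells.

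H19, an imprinted RNA that is abundant in embryonic mesoderm and endoderm, gave 4 members among its 7 probes. A_30_P01026972 read 7.91 and 7.98 in control and 5.52 and 5.88 in Tie-2-Etv2 CD45- cells, a difference of -2.25 ± 0.32 (SE). The CD45+ levels were 4.61 and 3.78 against 2.54 and 3.37, a difference of -1.23. This bright probe was well above background on all 16 arrays. The H19 probes A_55_P1961127 and A_55_P1961125 on the same strand were no members. They differed by -1.14 and -1.42 in CD45- cells and by -1.15 and 0.78 in CD45+ cells. A further 6 members at chr12:110894095-110940553, in the stretch of the imprinted genes Rian and Mirg, had a median difference of -2.69 in CD45- and -0.90 in CD45+ cells.

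In yolk sac CD45+ cells the members with the largest downward differences lay on 3 chromosomes. A_30_P01027810 at chr17:71183978-71185384, near Tgif1, read -0.76 and -1.92 in control and -6.21 and -6.82 in Tie-2-Etv2 cells, at least 10.2-fold lower, and A_30_P01021048 of that region differed by -5.12. A_30_P01024915 at chr10:69842010-69842465 went from -0.30 and -2.71 to -6.51 and -6.77, at least 9.10-fold lower. A_30_P01025213 at chrX:120300373-120302404 went from 0.85 and -1.09 to -4.40 and -6.05, at least 22.6-fold lower. In each case both control arrays lay above both transgenic arrays, although the 2 controls themselves differed.

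The largest cluster of members lay at Ifi207, another gene of the p200 family, where all 16 lincRNA probes of chr1:175653557-175672031 were lower in CD45+ cells, with a median of -3.91 (range -4.85 to -2.90). A_30_P01021447 read 6.10 and 6.32 in control and 2.07 and 2.11 in Tie-2-Etv2 CD45+ cells, a difference of -4.12 ± 0.23 (SE). The probe of Ifi207, 1343 bases away on the same strand, differed by -4.06. Macrophage marker levels were lower on the same transgenic arrays, as given above. The same 16 probes had no common direction in CD45- cells, where 2 were past 2 upward, 3 downward, and the median was -0.01. A_30_P01021447 was among those lower there too. It went from -2.73 and -2.66 to -6.96 and -7.00, a difference of -4.29 (at least 4.52-fold lower).

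Neat1, the scaffold RNA of nuclear paraspeckles, gave 5 members, all lower in CD45+ cells. A_30_P01025798 read 1.69 and 4.76 in control and 0.14 and 0.56 in Tie-2-Etv2 CD45+ cells, a difference of -2.87 ± 0.86 (SE). The groups did not overlap, but the 2 control arrays stood further apart than the lower of them from the transgenic arrays. In CD45- cells A_30_P01025798 differed by -0.87.

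Higher in CD45+ cells were the 6 members at chr6:40693617-40720167, in the gene of Mgam, an intestinal maltase also found in granulocytes. A_30_P01018926 read -3.15 and -4.62 in control, with 1 array above background, and 0.32 and -0.13 in Tie-2-Etv2 CD45+ cells, a difference of 3.98. Over the 6 the median difference was 3.69 in CD45+ and -1.99 in CD45- cells. The granulocyte and mast cell markers had a mean level of -0.78 to 1.58 in control and 4.48 to 4.89 in Tie-2-Etv2 CD45+ cells, whose part was not tested. A_30_P01021663 at chr5:77084398-77086144 went from -6.50 and -4.95 to -1.34 and -0.94 in CD45+ cells, at least 9.38-fold higher, and differed by 0.62 in CD45- cells. Near Trim71, a stem cell ubiquitin ligase that binds RNA, A_30_P01028518 of chr9:114412295-114418384 read -2.20 and -2.88 against 0.83 and 1.34 in CD45+ cells, a difference of 3.63. In CD45- cells that probe was bright in both genotypes, with 1.41 and 1.23 against 0.92 and 1.46.

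Opposite directions in the 2 yolk sac gates were seen in 12 members, 5 of them higher in CD45- and lower in CD45+ cells and 7 the reverse. Of the 6 whose smaller difference was the largest, A_30_P01030969 at Ifi207 read -4.57 and -3.53 against -0.62 and -1.49 in CD45- cells and 4.52 and 4.67 against 1.74 and 1.64 in CD45+ cells, differences of 2.99 and -2.90. A_30_P01021982 at Mgam differed by -2.45 and 4.24. The remaining 4 had transgenic CD45+ arrays that disagreed. For A_30_P01019873 these read -0.95 and -5.80, and without yolk sac CD45+ Tie-2-Etv2 replicate 1 the difference of 2.37 became -0.05. A_30_P01029448 read -6.14 and -1.39, and its difference of 2.57 was 0.20 without replicate 2 and 4.95 without replicate 1 of that group. A_30_P01032715 read -1.83 and -5.37, and its 2.36 was 0.60 without replicate 1 and 4.13 without replicate 2, while its CD45- difference of -2.52 was -1.55 without yolk sac CD45- Tie-2-Etv2 replicate 1. A_30_P01032917 read -4.20 and -1.68, and its 3.31 was 2.05 without replicate 2.

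Embryo CD45- cells gave the first test of a difference outside the rule. Its spread was estimated over all 16 arrays, which include the yolk sac arrays that the rule used. Of 822 members that could be fitted, 10 from 8 loci rose and 0 fell with the transgene at an adjusted p under 0.05 (limma, two-sided, Benjamini-Hochberg over 34119 probes). This is 1.22% of the members, against 1.13% of all probes (1.10% higher and 0.0264% lower) and 0.132% of the 6079 fitted lincRNA probes that were no members. The share of members called was thus near that of all probes. Without adjustment, limma gave a p under 0.05 to 70 members that were higher and 20 that were lower, 8.52% and 2.43% of the members, against 4.36% and 2.27% of all probes. Of 308 fitted members that were higher in yolk sac CD45- cells, 9 rose and 0 fell, 258 had a difference above 0 and the median was 0.47. Of 216 that were lower there, 1 rose and 0 fell, 163 were below 0 and the median was -0.29. The median over all probes was -0.03.

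A_30_P01022557, on chromosome 13, read -6.49 and -7.25 in control and -2.22 and -2.79 in Tie-2-Etv2 embryo CD45- cells, a rise of 4.37 ± 0.29 (SE; limma adjusted p = 2.52e-05; at least 5.44-fold). A_30_P01030312 and A_30_P01020886 on the X chromosome rose by 4.43 ± 0.54 (adjusted p = 0.00156) and 4.18 ± 0.47 (adjusted p = 0.000843). Their levels went from -4.08 and -4.61 to 0.26 and -0.09, and from -2.44 and -2.91 to 1.69 and 1.31, with both probes well above background on all 4 arrays. These 3 calls were kept with any 1 of the 4 arrays left out. Under the normexp correction the rises of A_30_P01022557 and A_30_P01030312 shrank to 1.02 and 2.37. Cxcr3 rose by 2.50 (adjusted p = 0.00322) and Cmah by 2.26 (adjusted p = 0.00161) in the same cells.

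4 of the 7 named calls of this gate were lost with 1 array left out. A_30_P01017728 rose by 3.64 (adjusted p = 0.028), and the call was lost without any 1 of the 4 arrays, with values of 3.31 to 3.98. A_30_P01027543, between Ifi204 and Mndal, rose by 1.94 (adjusted p = 0.0204), and lost the call without Control replicate 1 (1.73), Tie-2-Etv2 replicate 1 (1.75) or Tie-2-Etv2 replicate 2 (2.14). A_30_P01030748, at chr15:92174226-92201201, rose by 1.62 (adjusted p = 0.00462), and not without Control replicate 1 (1.46). A_30_P01029577 rose by 2.17 (adjusted p = 0.00692), and not without Tie-2-Etv2 replicate 1 (2.05). It was not well above background on any of the 4 arrays, at -6.89 and -7.65 against -4.97 and -5.22, so no fold is given.

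One call of this gate went against the yolk sac CD45- cells. A_30_P01019171 at chr14:61252837-61310872, which was singled out after its values were seen, rose by 1.41 ± 0.28 (adjusted p = 0.042) in embryo CD45- cells, from -6.10 and -6.07 to -4.90 and -4.46. In yolk sac CD45- cells A_30_P01019171 read -4.06 and -3.92 in control and -6.81 and -5.97 in Tie-2-Etv2 cells, a difference of -2.40. Beside these results, the leukocyte markers of embryo CD45- cells had a mean level of -1.93 to -1.79 in control and 1.11 to 1.14 in Tie-2-Etv2 cells, with Ptprc and Cd53 not above background in either genotype. The megakaryocyte markers went from -1.65 to -1.33 up to 3.00 to 3.35. The part of either list was not tested.

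More members moved in embryo CD45+ cells. There 33 members from 20 loci rose and 10 from 6 loci fell, 5.23% of the 822, against 2.63% of all probes (2.01% higher and 0.618% lower) and 0.411% of the other lincRNA probes. Of 210 members that were higher in yolk sac CD45+ cells, 30 rose and 0 fell, 182 had a difference above 0, and the median was 0.86. Of 205 fitted members that were lower there, 8 fell and 0 rose, 180 were below 0, and the median was -0.80 against -0.03 over all probes. The count depended on the arrays used: it was 15, all higher, without embryo CD45+ Tie-2-Etv2 replicate 2, and 0 when only these 4 arrays were fitted, where without adjustment limma still gave 104 higher and 111 lower members a p under 0.05. In the normexp values 46 members were called, 21 higher and 25 lower, of which 23 were among the 43. In both embryo gates together 49 members were called, 4 of them in both gates.

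The 6 members at Mgam all rose in embryo CD45+ cells, by 4.55 to 5.93. A_30_P01018926 read -5.38 and -3.83 against 1.18 and 1.35, a rise of 5.87 ± 0.72 (SE; limma adjusted p = 0.00229), and A_30_P01029478 rose by 5.56 (adjusted p = 0.0015). Both kept their calls with any 1 of the 4 arrays left out, whereas A_30_P01021982 rose by 5.93 (adjusted p = 0.008) but lost the call without Tie-2-Etv2 replicate 2, at 5.66. The gene probe of Mgam rose by 4.11 (adjusted p = 0.00183), 681 bases from A_30_P01018926 on the same strand, so the probes may read the Mgam transcript itself. Granulocyte and mast cell markers had a mean level of 1.02 to 1.71 in control and 4.35 to 4.59 in Tie-2-Etv2 embryo CD45+ cells. Of the 8 that could be fitted, 3 rose and 0 fell, and their part was not tested.

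4 members by Trim71 also rose, by 2.77 to 3.67, and the Trim71 probe, 3879 bases from A_30_P01028518, rose by 3.38 (adjusted p = 0.00339). A_30_P01028518 went from -5.12 and -3.45, with 1 control array above background, to -1.19 and -0.03, a rise of 3.67 ± 0.55 (adjusted p = 0.00626). At chr8:82836971-82849309 A_30_P01022866 read -2.71 and -2.53 against -1.0 and -0.52, a rise of 1.86 ± 0.22 (adjusted p = 0.00164) that was kept without any 1 array. A_30_P01029577 rose by 2.75 ± 0.33 (adjusted p = 0.00185; at least 1.34-fold) and A_30_P01022557 by 2.92 ± 0.29 (adjusted p = 0.000649; at least 2.32-fold), both kept likewise. For A_30_P01022557 the normexp value was 0.41 with an adjusted p of 0.333. The other 2 members called in both embryo gates were those of the X chromosome. A_30_P01030312 rose by 3.08 (adjusted p = 0.014), a call lost without Tie-2-Etv2 replicate 2 (2.79), and A_30_P01020886 by 2.33 (adjusted p = 0.0268), a call lost without Control replicate 2 (1.56) or Tie-2-Etv2 replicate 2 (1.96). In the same cells the endothelial markers had a mean level of -0.11 to 0.13 in control and 1.33 to 1.72 in Tie-2-Etv2 cells, and 5 of the 10 rose. The megakaryocyte markers went from 1.03 to 1.12 up to 2.71 to 2.85, and 6 of the 10 rose. The part of these lists was not tested.

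A_30_P01027753 on chromosome 4 rose by 3.85 ± 0.88 (adjusted p = 0.0484; at least 4.67-fold), from -5.51 and -6.84 to -2.32 and -2.33, and the call was lost without any 1 of the 4 arrays (3.18 to 4.52). A_30_P01019194 at chrX:155945151-155945654 rose by 2.49 (adjusted p = 0.0269; at least 1.78-fold). Its call was lost without Control replicate 2 (1.69), Tie-2-Etv2 replicate 1 (2.53) or Tie-2-Etv2 replicate 2 (2.46).

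Of the 10 falls in embryo CD45+ cells, 5 came from Ifi207. A_30_P01021447 went from 6.34 and 5.68 to 4.66 and 4.22, a fall of -1.57 ± 0.23 (adjusted p = 0.00515), lost without Tie-2-Etv2 replicate 2 (-1.34). A_30_P01021597 and A_30_P01021838 fell by 1.62 and 1.55 (adjusted p = 0.0173 and 0.0147), and both calls were lost without Control replicate 1 (-1.22 and -1.16) or Tie-2-Etv2 replicate 2 (-1.37 and -1.39). A_30_P01031526 and A_30_P01017895 each fell by 1.57 (adjusted p = 0.0311 and 0.0331). They lost the call without Control replicate 1 (-1.16 for both), Tie-2-Etv2 replicate 1 (-1.75 and -1.74) or Tie-2-Etv2 replicate 2 (-1.38 and -1.39). Ifi207 fell by 1.53 (adjusted p = 0.0155), 1343 bases from A_30_P01021447. The macrophage markers had a mean level of 6.54 to 6.63 in control and 5.26 to 5.87 in Tie-2-Etv2 cells. By the same limma test 1 of the 10 fell and 0 rose, and their part was not tested.

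3 more named members fell elsewhere. A_30_P01018977 at chr16:77670599-77691642 went from -3.48 and -3.23 to -4.89 and -5.35, a fall of -1.77 (adjusted p = 0.0245; at least 2.50-fold). It lost the call without Control replicate 1 (-1.89), Control replicate 2 (-1.64) or Tie-2-Etv2 replicate 2 (-1.54). A_30_P01031631, 2484 bases from the probe of the ubiquitin ligase Rnf150, fell by 1.34 (adjusted p = 0.0293), and not without Control replicate 2 (-0.98), Tie-2-Etv2 replicate 1 (-1.50) or Tie-2-Etv2 replicate 2 (-1.17). A_30_P01021592 near Pvt1, a long noncoding RNA beside Myc, fell by 1.51 (adjusted p = 0.0198), lost without any 1 of the 4 arrays (-1.57 to -1.44). It was at -5.22 and -5.16 against -6.64 and -6.76, not well above background on any of them, so no fold is given. In the yolk sac A_30_P01021592 went the other way. It read -6.71 and -6.33 against -3.99 and -4.60 in CD45- cells, a difference of 2.22. The CD45+ levels were -6.15 and -5.80 against -3.71 and -4.46, a difference of 1.89. The difference between the tissues was not tested.

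The difference of the transgene effect between the embryo gates was tested directly. The CD45+ effect exceeded the CD45- effect for 6 members and was below it for 4, 1.22% of the 822, against 0.961% of all probes (0.466% higher and 0.495% lower), and the unadjusted counts were 44 and 74 (5.35% and 9%, against 3.70% and 4.20% of all probes). The 10 lay in 5 loci. A_30_P01031675 at chr8:82836971-82849309 differed by 2.94 ± 0.44 (limma adjusted p = 0.0103) and kept the call without any 1 of the 8 arrays. A_30_P01027687 at Mgam differed by 5.89 ± 1.16 (adjusted p = 0.046). Of the 9 members named for this difference, the other 8 lost the call without at least 1 array. The count was 24 without embryo CD45+ Control replicate 2, 6 without CD45+ Tie-2-Etv2 replicate 2 or CD45- Tie-2-Etv2 replicate 1, 5 without CD45- Tie-2-Etv2 replicate 2, and 4 and 3 without CD45- Control replicate 2 and replicate 1.

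Where the members lie without the transgene was read from the embryo control cells, CD45+ against CD45-. There 191 members from 106 loci were higher and 193 from 97 loci lower in CD45+ cells, 46.7% of the 822, against 35.6% of all probes and 19.4% of the other lincRNA probes. Gate and position on the slide cannot be told apart in this comparison. Of the members lower in Tie-2-Etv2 yolk sac CD45- cells, 127 of 216 were lower and 7 higher in embryo control CD45+ than in CD45- cells, with a median difference of -2.05. Of those lower in yolk sac CD45+ cells, 119 of 205 were higher and 10 lower, with a median of 2.10. The members higher in yolk sac CD45- cells had 72 of 308 higher and 17 lower (median 0.38), and those higher in yolk sac CD45+ cells 8 of 210 higher and 51 lower (median -0.45). The median over all probes was 0.07. A member that was lower in a yolk sac gate had to be bright in the control cells of that gate to be chosen, so the choice itself favours a lean toward the same gate, and nothing is read from these counts.

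The steepest gate difference was at Ifi207, where all 16 members were higher in CD45+ cells, by 5.49 to 13.31 with a median of 10.04. A_30_P01019537, which shares a run of at least 25 bases with the Ifi207 probe, read -6.33 and -7.13 in CD45- and 6.90 and 6.26 in CD45+ control cells, a difference of 13.31 ± 0.38 (limma adjusted p = 5.85e-09). At the other end, A_30_P01026972 of H19 read 7.45 and 7.00 against 2.61 and 2.70, a difference of -4.57 ± 0.32 (adjusted p = 2.01e-06). A_30_P01030401, 14460 bases from the imprinted antisense RNA gene Airn, was lower by 3.99 ± 0.25 (adjusted p = 8.94e-07; at least 3.82-fold) and A_30_P01028353 near Mecom lower by 3.37 ± 0.22 (adjusted p = 1.30e-06; at least 2.61-fold). A_30_P01021238 at chr9:96632664-96653249 and A_30_P01020742 near Mecom differed by -3.71 and -3.89 (adjusted p = 3.71e-07 and 3.89e-07), with both CD45+ arrays at background. Neat1 was higher in CD45+ cells by 3.46 ± 0.86 (adjusted p = 0.00919), on A_30_P01025798.

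Probes of 1 region mostly moved together when they read the same strand. For 722 members the array held another probe of the same region and strand that was well above background in a yolk sac group, and in 1543 of 2057 such pairs (75%) that probe differed by at least 1 in the member's direction. On the opposite strand of the region this held for 358 of 980 pairs (36.5%). Many of the same-strand probes are members themselves, and such pairs are counted from both sides. The share of all lincRNA probes that differed by at least 1 was not computed, so this is a description. The median GC content was 43.3% for members and 45.0% for the other lincRNA probes well above background.

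A named gene probe lay within 100000 bases of 739 members. Where the nearest one was on the same strand within 5000 bases, it differed by at least 2 in the member's direction for 20 of 38 members higher in CD45- cells (52.6%), 36 of 57 lower (63.2%), 23 of 43 higher in CD45+ cells (53.5%) and 33 of 44 lower (75%). Farther away on the same strand the shares were 11.2%, 55.7%, 11.7% and 28.0%, and on the opposite strand 9.78%, 42.0%, 1.96% and 23.6%. Over all probes well above background in a yolk sac group, the shares past 2 in these directions were 4.99%, 7.93%, 4.40% and 5.83%. Neighbouring members share their gene, so the members are not independent: the 57 members lower in CD45- cells had 21 genes between them. Near probes on the same strand, such as those at Mgam and Ifi207, may read parts of the gene's own transcript. A run of at least 25 bases was shared with the probe of a named gene in 25 members. Runs shared between lincRNA probes were not counted.

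Among 65 known long noncoding RNA genes, 47 had a probe and 38 could be fitted. In the yolk sac 4 were at least 2 higher in CD45- cells (Jpx, an activator of Xist; Mir17hg, host of a microRNA cluster; Morrbid, a survival RNA of myeloid cells; Dancr) and 6 at least 2 lower. These 6 were the imprinted RNAs Meg3 and Mirg, Hoxa11os, Fendrr, Mir99ahg and Six3os1, with differences between -3.28 and -2.35. In CD45+ cells Peg13, Morrbid and Dancr were higher by 3.49, 2.56 and 2.87, and Neat1, Fendrr and Mir99ahg lower by 2.87, 2.15 and 2.31. Of all probes well above background in a yolk sac group, 4.99% were at least 2 higher and 7.93% lower in CD45- cells. The shares in CD45+ cells were 4.40% and 5.83%. In the embryo 0 of the 38 rose or fell in CD45- cells (1 higher and 1 lower at an unadjusted limma p under 0.05), against 1.13% of all probes, and 1 rose in CD45+ cells, against 2.01%, the imprinted Peg13, by 2.03 ± 0.25 (limma adjusted p = 0.00234). The medians were -0.08 and 0.09, against -0.03 over all probes in either gate. Between the embryo control gates 2 were higher and 14 lower in CD45+ cells, against 19% and 16.5% of all probes, with Airn at -4.06 (adjusted p = 0.000213), H19 at -3.70 (adjusted p = 8.20e-06) and Meg3 at -3.21 (adjusted p = 0.00184) among the lowest. At the Dancr locus, chr5:74487385-74497428, 13 of 23 lincRNA probes were members, with median differences of 2.36 in CD45- and 1.97 in CD45+ cells. There A_30_P01020357 rose in embryo CD45+ cells by 0.97 (limma adjusted p = 0.045). It shares a run of at least 25 bases with the Dancr probe, so both may read the same transcript. The Dancr probe differed by 0.91 in these cells and was not called (limma adjusted p = 0.128).

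Close to the threshold of 2, the members just inside were A_30_P01027194, with a difference of 2.0001 in CD45- cells, and A_30_P01020325 of the nuclear RNA Malat1 (NEAT2 on the array), with -2.0039 in CD45+ cells. Just outside were A_30_P01022401, with 1.999 in CD45- cells, and A_30_P01019994, with 1.9965 in CD45+ cells. These values differ by far less than the SE of any member named above. A threshold of 1.5 would have given 1371 members and one of 3 would have given 252.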

How the data were processed

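Intensities of 16 arrays were used as deposited: the authors' scanner files held processed intensity values made with Agilent Feature Extraction 10.7, background-subtracted within each array, with well-above-background and outlier flags, per the submitters' processing notes and the file headers. Per the labels, RNA was purified with a Qiagen microelute kit and labelled with Cy3 by Agilent's low input kit. Control and outlier spots were left out (87 probes lost an array, 20 of them lincRNA probes, and 4 members could not be fitted), spots of a probe were averaged, and log2 levels were set to the 75th percentile of each array. The 34119 probes flagged as above background on both arrays of any group entered limma 3.58.1 (R 4.3.3; lmFit and eBayes on 8 group means, all 16 arrays, 8 residual and 2.32 prior degrees of freedom, Benjamini-Hochberg adjustment, two-sided, threshold 0.05). An error after a difference is the fit's SE. In 50 simulated probes each with a change of 1, 2, 3 or 4 (log2), tested on simulated data for the embryo CD45- comparison over 34119 probes, 10, 22, 40 and 44 were recovered, with 6 false calls.

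The deposited value table held log2 values; set against the scanner files, each column was the log2 processed intensity, moved by 1 constant per array, with the probe's median over the 4 arrays of each tissue and gate then subtracted and the direction kept. How the authors chose that constant is unknown. The medians of its columns (2 controls, then 2 transgenic arrays) were, for embryo CD45-, 0.174, -0.0935, 0.028 and -0.0323, for embryo CD45+, 0.165, -0.0836, 0.00542 and -0.0324, for yolk sac CD45-, 0.0847, -0.183, 0.0156 and -0.00448, and for yolk sac CD45+, 0.146, 0.00326, -0.00891 and -0.12. The table served as an alternative for the genotype comparisons.

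Members and gene lists (8 marker lists of 10 genes, 65 known long noncoding genes) were chosen with earlier results of these data known. Named probes are the members with the largest yolk sac differences (8 up and 4 down per gate), the 6 smallest p-values per direction and embryo comparison, up to 6 members with opposite directions, and 2 probes on each side of the threshold; other members named in the text lie in the loci of these, or were picked after their values were seen. On chromosome 18 lay 18 members, counted but not named, and 1 further member is counted but not reported here. Gene names came from the files' accessions and symbols matched to RefSeq's gene table (GRCm38.p6; names only, 29671 probes named); positions are those of the files (mm9). Alternatives were quantile normalization, normexp, and the 75th percentile taken only over probes well above background on all arrays. Others were different filters, fewer arrays in the fit, a replicate block, leaving out arrays, and the deposited table. Same-numbered arrays of a tissue and gate correlated at 0.264, 0.0357, 0.0858 and 0.0287 in their deviations from group means, with 2 pairs each, which does not show that the numbers pair samples. Tables were made with Python 3.11.15, pandas 2.3.3 and numpy 2.4.6.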

Additional observations from a re-analysis of the deposited data

Results flagged for a closer look

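In the embryo, 9 of the members named here had transgene effects that differed between the gates by limma's test of the difference (adjusted p under 0.05; CD45+ effect minus CD45- effect). The values were 5.18 for A_30_P01018926, 5.89 for A_30_P01027687 and 4.68 for A_30_P01029478, all at Mgam. They were 1.66 for A_30_P01022866 and 2.94 for A_30_P01031675 on chromosome 8, -2.42 for A_30_P01021592 near Pvt1, and -2.20 for A_30_P01021838 and -2.54 for A_30_P01031526 at Ifi207. For A_30_P01027543, between Ifi204 and Mndal, the value was -2.49. In all but A_30_P01031675, leaving out some array ended the call.

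In the yolk sac, 6 of the members named here had both arrays of one gate move against both arrays of the other. That difference was not tested, since the rule used these values. The differences in CD45- and then CD45+ cells were -2.27 and 3.98 for A_30_P01018926, -2.45 and 4.24 for A_30_P01021982, 2.99 and -2.90 for A_30_P01030969, 2.16 and -3.38 for A_30_P01031526, -2.52 and 2.36 for A_30_P01032715, and -2.64 and 3.31 for A_30_P01032917. For A_30_P01032715, leaving out replicate 1 of yolk sac CD45+ Tie-2-Etv2 gave 0.60, and leaving out replicate 1 of yolk sac CD45- Tie-2-Etv2 gave -1.55. For A_30_P01018926 the CD45- difference was -1.11 without yolk sac CD45- Tie-2-Etv2 replicate 1 and -3.43 without replicate 2. For A_30_P01032917 the CD45+ difference was 2.05 without yolk sac CD45+ Tie-2-Etv2 replicate 2.

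A_30_P01019171 moved one way on both embryo CD45- arrays (1.41) and the other way on both yolk sac CD45- arrays (-2.40). The difference between the tissues was not tested.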

How the results depend on the processing

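In what follows, the other percentile means the 75th percentile taken only over probes well above background on all arrays. The count of members was 839 after quantile normalization, 769 with the other percentile and 827 from the deposited table. It was 1371 and 252 at thresholds of 1.5 and 3, 117 with normexp and 270 where both groups had to be well above background. Leaving out 1 array gave 910 to 1274, the highest without yolk sac CD45+ Control replicate 2. Calls in embryo CD45- cells, 10 in all, were 3 with normexp, 4 with only the 4 arrays compared and 2 with the strict filter (455 members tested), and 8 to 11 without 1 array. Embryo CD45+ calls, 43 in all, were 27 without a filter, 0 with the 4 arrays alone (104 higher and 111 lower unadjusted), 17 with the slide's 8 arrays, 19 with the strict filter (389 tested), and 15 to 55 without 1 array; the split of 33 higher and 10 lower became 21 and 25 with normexp, 36 and 17 after quantile normalization and 33 and 12 with the other percentile. The gate comparison of embryo controls, 384 calls, gave 137 with the strict filter (289 tested) and 310 to 406 otherwise, with 329 to 346 without 1 array. The test of the difference between gates, 10 calls, gave 3 without a filter, 16 with normexp, 3 with the slide's arrays, 1 with the strict filter (268 tested) and 3 to 24 without 1 array. With the other percentile its split of 6 higher and 4 lower became 4 and 7, with normexp 5 and 11. The strict filter tested fewer members and the smaller fits used fewer arrays, but smaller fits did not always give fewer calls. The cause of these changes was not tested. For A_30_P01019873 the yolk sac CD45+ difference of 2.37 ranged from 4.80 to a reversed -0.05 with 1 array left out.

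The replicate block gave 6 calls in embryo CD45- cells (4 of them among the 10), 32 in CD45+ cells, 399 between the gates and 3 for the difference between gates. Dim signal limits most members, since the dimmer group was often at background.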
